A study of Homo sapiens with 6 samples.

Results

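The 42 genes described here encode proteins of mitosis and of the spindle checkpoint, from the cyclins that start mitosis to the proteins that part the daughter cells. They were taken by symbol from a table of normalised expression values (FPKM, fragment counts scaled to transcript length and library size), in which a row belonged to a gene when its identifier, split at commas, held the symbol. All 42 were found among the 24108 rows of the table, in 44 rows, since BIRC5 and PRC1 had 2 rows each and BUB1B was listed only in a row joined with PAK6. The rule itself uses symbols and no measured value, but the list was drawn up with earlier results of these data known.

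The samples were 6 RNA-seq libraries of MDA-MB-231, an established basal triple-negative breast cancer cell line, and the comparison asks how expression differs when the zinc finger transcription factor ZNF148 is depleted. The 3 shControl libraries came from cells transduced with a short hairpin against firefly luciferase, and the 3 shZnf148 libraries from cells transduced with a hairpin against ZNF148. Both groups were transduced for 48 h and then selected for 24 h in 0.5 µg/ml puromycin, so the virus and the drug were common to all samples. Each group rests on 1 hairpin, and the labels do not say whether the replicates were separate cultures, so the p-values below measure the spread between these samples, which may be technical.

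A cell enters mitosis when cyclin A and cyclin B activate the kinase CDK1, which the CDC25 phosphatases release from inhibition. The spindle checkpoint then holds the cell before anaphase for as long as a kinetochore is not attached to microtubules, by keeping CDC20 from switching on the anaphase-promoting complex. Most of these genes are transcribed in G2 and M phase, through promoters bound by the DREAM and MMB-FOXM1 complexes at a cell cycle homology region (CHR) element and by NF-Y at CCAAT boxes, so their mRNA levels follow the share of cells in those phases.

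The promoters of these genes are shown first, because a shared sequence element was not part of how the genes were chosen. Promoters of 250 bases before to 50 bases after the transcription start (RefSeq, GRCh38.p14) were matched by symbol for 34 of the 42 genes, and AURKA, BIRC5, BUB3, FOXM1, RACGAP1, TPX2, TTK and UBE2C had no entry. The CHR words searched were TTTGAA and TTCGAA on both strands, and a gene was counted when any of its promoters held a word. Below are 30-base stretches from genes whose values are given further down, each read 5′ to 3′ along the coding strand, with the CHR word in capitals (TTCAAA is TTTGAA on the opposite strand). CCNB2 and PLK1 are included as members with small differences between the groups.
BUB1, chr2:110678045-110678074, minus strand: ctgcgcggggtaTTCGAAtcggcggcggct
ANLN, chr7:36389830-36389859, plus strand: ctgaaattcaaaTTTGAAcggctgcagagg
ECT2, chr3:172750746-172750775, plus strand: agagcagcttagttTTTGAAtcggttgtgg
SMC2, chr9:104094294-104094323, plus strand: ctcgcgccgaaaTTCAAAggaataaatagt
SMC4, chr3:160399563-160399592, plus strand: gccgcactttttTTCAAAttagtggatccc
NCAPG, chr4:17810932-17810961, plus strand: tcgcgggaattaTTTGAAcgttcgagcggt
CCNB2, chr15:59105105-59105134, plus strand: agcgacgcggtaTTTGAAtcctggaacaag
PLK1, chr16:23678848-23678877, plus strand: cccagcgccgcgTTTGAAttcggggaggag
CHR words thus stood near the start of genes that passed the test described below and of genes that did not.

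A CHR word was found in 28 of the 34 genes (82.4%), against 19.5% of all 27305 genes with a promoter and 15.4% of the genes in tested rows. The words gathered at the start site, with a median first base at position -26, and 24 of the 34 genes (70.6%) held one within 50 bases of the start, against 6.24% of all genes. CCAAT words, searched on both strands, were found in 26 of the 34 genes (76.5%) against 39.7% of all genes, at a median position of -87, upstream of the CHR words. Both kinds were present in 21 genes (61.8%), against 7.85% of all genes. CCNA2 and CCNB1 held no CHR word in this window, but forms of the element other than TTTGAA and TTCGAA were not searched. The trait was not confined to the 42 genes. Of 101 further genes of the mitotic machinery and its transcriptional regulators, 51.5% held a CHR word, 63.4% a CCAAT word and 31.7% both. Among 24 genes of G1/S and DNA replication, 8.33% held a CHR word and 66.7% a CCAAT word. A match is a run of letters and not a measured binding site, and the windows around the start were set after the positions had been seen.

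ZNF148 was low in every shZnf148 library. Its values were 3.72, 4.36 and 4.30 FPKM in shControl and 0.914, 0.282 and 0.834 FPKM in shZnf148, a log2 fold change of -1.63 (SE 0.18, adjusted p = 0.0099), leaving 16.4% of the control mean. Here and below, log2 fold changes are of FPKM + 1, shZnf148 against shControl, and a gene passed the test at an adjusted p under 0.05 in limma, with Benjamini-Hochberg adjustment over the 11777 rows whose mean reached 1 FPKM. The hairpin target lies in the coding part of exon 9 of 9 of ZNF148 (GRCh38, chr3:125232398-125232418, minus strand).

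The libraries were similar in scale. Summed FPKM ranged from 497730 to 507312 in shControl and from 469594 to 488173 in shZnf148, so every shZnf148 library lay somewhat below the controls. Size factors ranged from 0.999 to 1.01. Pearson's r of log2 values between libraries ranged from 0.949 to 0.960 within a group and from 0.931 to 0.953 between groups. Sequencing depth in reads is unknown, and relative depth read from the steps between low values ranged from 0.806 to 1.13 of that of shControl replicate 1. The defining luminal markers ESR1 and TFF1 were listed at 0 in all libraries, and PGR, FOXA1 and CDH1 had means of at most 0.301 FPKM. In contrast, GATA3, EPCAM and KRT19 (in a row joined with KRT17), also on that list, had means of 8.47, 9.81 and 248 FPKM. ERBB2, on that list too and in a joined row, had a mean of 56.4 FPKM. It was at 20.1, 126 and 20.1 FPKM in shControl and at 24.8, 125 and 21.9 FPKM in shZnf148. Replicate 2 of both groups thus raised the ERBB2 mean. The mesenchymal marker VIM had a mean of 1644 FPKM. Of the MDA-MB-231 marker list, 9 of 10 genes were tested, all 9 had lower means in shZnf148 and 4 passed (CD44, AXL, PLAU and KRT18), whereas SPARC had a mean of 0.503 FPKM. The 4 are 44.4% of the 9, whereas 8.13% of all rows passed with a decrease and 49.1% had lower means. Of 9 luminal markers 4 were tested and none passed in limma (0 at an unadjusted p under 0.05), and of the immune markers reported here, CD68 fell by 0.52 on the log2 scale, with PTPRC, CD3E and CD14 at means of at most 0.969 FPKM.

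All 42 mitotic genes passed the filter, with means from 8.08 FPKM for HMMR to 394 FPKM for UBE2C. The test was passed by 4 of them: BUB3, BUB1 and ANLN fell and FOXM1 rose. This was 9.52% of the 42, against 13.6% of all rows tested and 15.2% of the 7435 rows with a mean at least as high as that of HMMR, so the share was no larger than among expressed genes in general. The 3 that fell compare with 8.13% of all rows that fell, and the 1 that rose with 5.46% that rose. Only ANLN also changed by more than 1.5-fold, a rule met by 5.49% of all rows, 3.66% lower and 1.83% higher. The mean was lower in shZnf148 for 29 of the 42 genes and higher for 13, against 49.1% lower over all rows. The median log2 fold change was -0.06, and over all rows it was 0.01 with quartiles of -0.19 and 0.18.

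The interval around most of these differences was narrow. For 37 of the 42 genes (88.1%) the 95% interval of the change lay wholly within 1.5-fold in either direction, against 68.4% of all rows. All rows include genes down to a mean of 1 FPKM, and this share was not computed for rows as high as HMMR. The contrast is therefore not matched for expression. The groups did not overlap for 15 genes (35.7% of 42), 12 of them lower and 3 higher, against 41.0% of all rows (21.0% lower and 20.0% higher), and 42.8% of the rows at least as high as HMMR. In total 13 genes had an unadjusted p under 0.05, and 33.8% of all rows did. With 3 samples against 3 an exact two-sided permutation test of one gene cannot give a p below 0.1, and in bulk samples fewer cells in mitosis and less RNA of a gene per cell cannot be told apart.

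The calls depended on the libraries and on the fit, which was repeated in 16 alternative forms (other filters, pseudocounts, scalings and variance models, the replicate number as a block, summed rows, and each library left out). Without shControl replicate 1, 2 or 3, or without shZnf148 replicate 1, limma passed 0 of the 42 genes, although 8, 10, 8 and 11 of them had an unadjusted p under 0.05. In those fits the lowest adjusted p over the 42 genes was 0.0852, 0.0545, 0.0754 and 0.0564, and over all rows the number that passed dropped from 1600 to 29, 239, 22 and 339. Without shZnf148 replicate 2 the genes that passed were ANLN, BUB3, FOXM1 and SMC2, and without shZnf148 replicate 3 they were ANLN, BUB1 and BUB3. After quantile normalization, BUB3 and FOXM1 passed and 24 of the 42 genes had lower means.

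**Figure D1:**
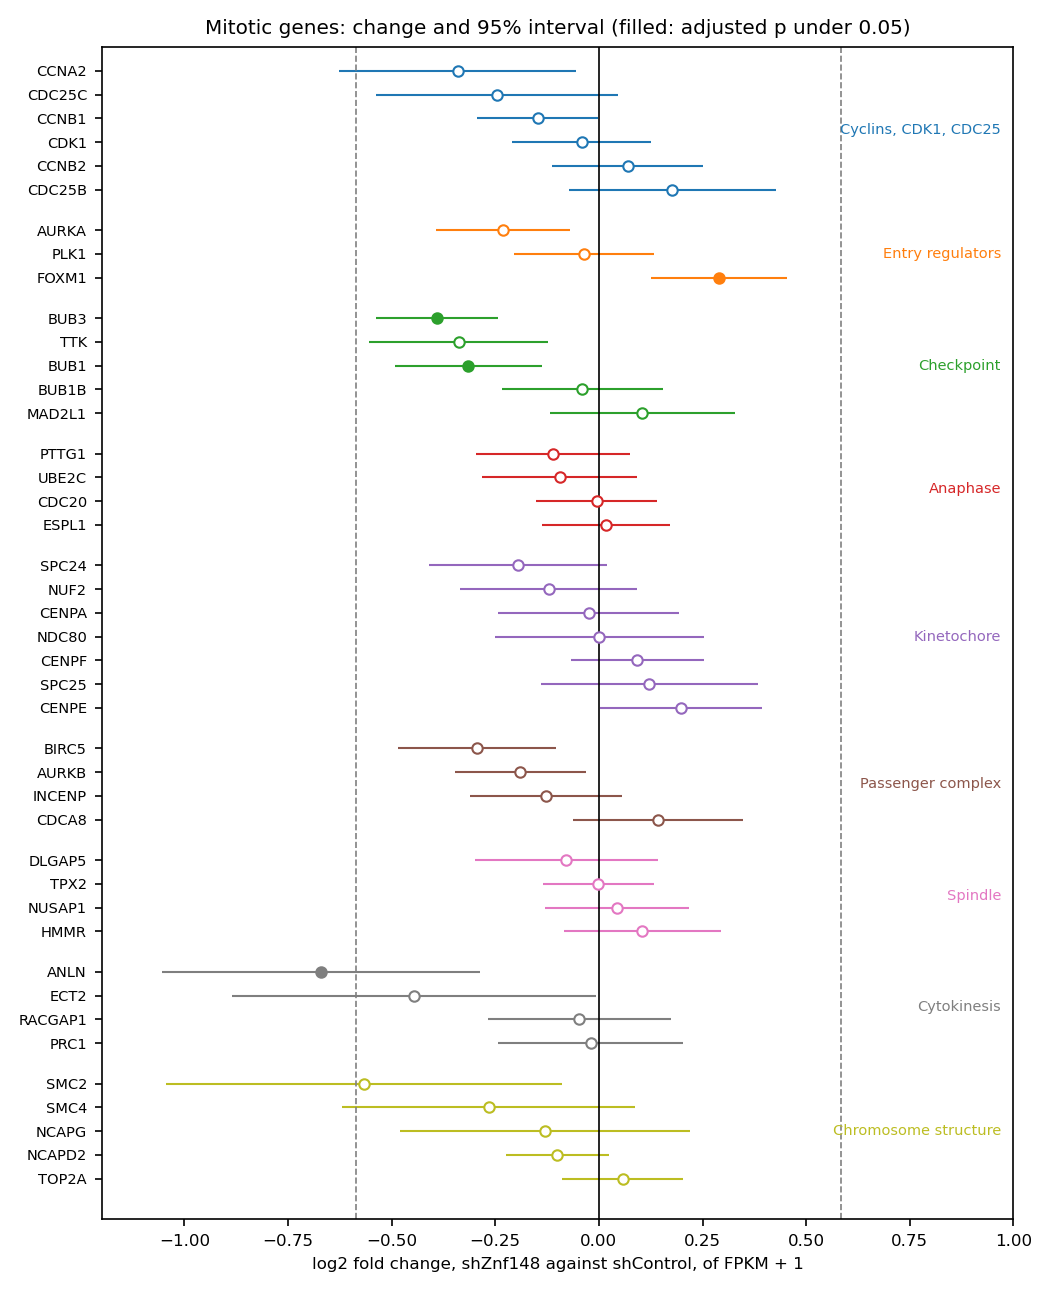
Log2 fold change of FPKM + 1, shZnf148 against shControl, for the 42 genes by function, with 95% intervals from limma (per gene, not adjusted). Filled points passed at an adjusted p under 0.05, and dashed lines mark 1.5-fold. BUB3, BUB1 and ANLN lie below 0 and FOXM1 above it, and 37 of the 42 intervals stay between the dashed lines.

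The checkpoint genes held 2 of the 3 genes that fell, or 40% of this small group. Over all rows 13.6% passed, 8.13% lower and 5.46% higher. Of the 5 members (BUB1, BUB1B, BUB3, MAD2L1 and TTK), 4 had lower means in shZnf148 and the median log2 fold change was -0.32. BUB3, a WD40 protein that brings BUB1 and BUBR1 to unattached kinetochores, was measured at 94.3, 103 and 93.3 FPKM in shControl and at 74.4, 72.9 and 73.9 FPKM in shZnf148. Every shZnf148 value lay below every control value, and the shZnf148 values were within 2 FPKM of each other. With n = 3 in each group, the mean ± SD was 97.0 ± 5.6 FPKM in shControl and 73.7 ± 0.77 FPKM in shZnf148, so BUB3 fell by 0.39 on the log2 scale (SE 0.06, limma adjusted p = 0.0182). BUB3 passed in 11 of the 16 alternative fits, with adjusted p from 0.0050 to 0.0852.

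BUB1, the kinase that recruits checkpoint and centromere proteins to the kinetochore, was at 108, 101 and 113 FPKM in shControl and at 86.0, 80.5 and 91.7 FPKM in shZnf148. The groups did not overlap, and the gap between them was similar to the spread within each group. The log2 fold change was -0.32 (SE 0.07, limma adjusted p = 0.0405), or 80.2% of the control mean, and BUB1 passed in 7 of 16 alternative fits. TTK, the MPS1 kinase that starts checkpoint signalling, had no overlap either, at 31.4 to 35.8 FPKM in shControl and 23.5 to 28.3 FPKM in shZnf148, and missed the threshold (log2 fold change -0.34, SE 0.09, limma adjusted p = 0.0541). The other two members overlapped between the groups. BUB1B, which encodes BUBR1, had a log2 fold change of -0.04 in the joined row, where reads of PAK6 cannot be told apart, and MAD2L1, whose product MAD2 binds CDC20, had 0.11.

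Among the regulators of mitotic entry, FOXM1 rose, whereas AURKA and PLK1 had lower means and did not pass. FOXM1, the transcription factor that activates G2/M genes, was at 46.1, 49.2 and 48.1 FPKM in shControl and at 63.2, 56.4 and 56.5 FPKM in shZnf148. All 3 shZnf148 values lay above the controls, with replicate 1 the highest. Its mean ± SD (n = 3) was 47.8 ± 1.6 FPKM in shControl and 58.7 ± 3.9 FPKM in shZnf148, and the log2 fold change was 0.29 (SE 0.07, limma adjusted p = 0.0411), and it passed in 8 of 16 alternative fits. AURKA, the kinase of spindle poles, was at 109, 114 and 118 FPKM in shControl and 102, 90.4 and 97.5 FPKM in shZnf148. Its groups did not overlap, but the log2 fold change of -0.23 (SE 0.07) missed the threshold (limma adjusted p = 0.0655). PLK1, the polo-like kinase that acts from entry to cytokinesis, overlapped between the groups with a log2 fold change of -0.04.

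The cyclins, CDK1 and CDC25 phosphatases had 4 lower and 2 higher means among 6 genes, with a median log2 fold change of -0.09, and none passed in limma (2 at an unadjusted p under 0.05). CCNA2, cyclin A2, which acts in S phase and at mitotic entry, was at 79.6, 84.8 and 87.0 FPKM in shControl and at 72.9, 54.4 and 72.2 FPKM in shZnf148. All shZnf148 values were below the controls, and replicate 2 was far below the other two. The log2 fold change was -0.34 (SE 0.12, limma adjusted p = 0.101), and -0.20 without shZnf148 replicate 2 (adjusted p = 0.0650). CCNB1, the cyclin B1 subunit of the mitotic kinase, was at 147, 149 and 151 FPKM in shControl and at 143, 131 and 129.6 FPKM in shZnf148. Its groups did not overlap, although by a small margin, and the log2 fold change was -0.15 (SE 0.06, limma adjusted p = 0.145). CCNB2, CDK1, CDC25B and CDC25C overlapped between the groups, with log2 fold changes from -0.25 for CDC25C to 0.18 for CDC25B.

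The genes of anaphase onset differed little. CDC20, UBE2C, PTTG1 and ESPL1 had log2 fold changes from -0.11 to 0.02, all 4 overlapped between the groups, and none passed in limma (0 at an unadjusted p under 0.05). UBE2C, the ubiquitin-conjugating enzyme of the anaphase-promoting complex and the highest of the 42 genes in FPKM, was at 391, 422 and 407 FPKM in shControl and at 396, 403 and 345 FPKM in shZnf148 (log2 fold change -0.09, SE 0.08, limma adjusted p = 0.431). PTTG1, securin, which holds separase inactive, was at 320.4, 292 and 327 FPKM in shControl and at 297, 306 and 267 FPKM in shZnf148 (log2 fold change -0.11, SE 0.08, limma adjusted p = 0.358). In both genes only shZnf148 replicate 3 fell outside the control range, on the low side. The intervals, -0.28 to 0.09 for UBE2C and -0.30 to 0.08 for PTTG1, leave room for a modest decrease. ESPL1, separase, had group means of 10.5 and 10.7 FPKM.

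At the kinetochore, 3 genes had lower and 4 higher means, the median log2 fold change was 0.00, and none of the 7 passed in limma (1, CENPE, at an unadjusted p under 0.05). NDC80, the microtubule-binding subunit of the outer kinetochore, was at 74.6, 79.1 and 70.6 FPKM in shControl and at 68.7, 69.5 and 87.4 FPKM in shZnf148. The shZnf148 values lay on both sides of the controls, and the interval of the log2 fold change ran from -0.25 to 0.25 (limma adjusted p = 0.995). CENPE, a kinesin that carries chromosomes to the spindle equator, was at 22.0, 24.2 and 24.0 FPKM in shControl and at 26.7, 24.96 and 29.4 FPKM in shZnf148. All 3 values were above the controls (log2 fold change 0.20, SE 0.08, limma adjusted p = 0.146). The NDC80 complex partners did not share 1 direction: NUF2 and SPC24 had log2 fold changes of -0.12 and -0.19 and SPC25 of 0.12. CENPA, the histone of centromeric chromatin, and CENPF, a kinetochore protein, had -0.02 and 0.09.

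In the chromosomal passenger complex, which corrects faulty attachments, AURKB, BIRC5 and INCENP had lower means and CDCA8, the borealin subunit, a higher one. None of the 4 passed in limma, and 2 had an unadjusted p under 0.05. AURKB, its kinase, was at 132, 121 and 120.2 FPKM in shControl and at 111, 103 and 113 FPKM in shZnf148 (log2 fold change -0.19, SE 0.07, limma adjusted p = 0.0997). BIRC5, survivin, was at 88.0, 97.5 and 94.9 FPKM in shControl and at 69.1, 79.7 and 79.7 FPKM in shZnf148 (log2 fold change -0.29, SE 0.08, limma adjusted p = 0.0553). The groups did not overlap for either gene. The other row of BIRC5, at 45.4 to 51.5 FPKM in shControl and 36.2 to 46.8 FPKM in shZnf148, overlapped and had a log2 fold change of -0.24.

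The spindle microtubule proteins were nearly level. TPX2, which activates AURKA on the spindle, was at 179.9, 191 and 189 FPKM in shControl and at 189.9, 180.4 and 189 FPKM in shZnf148. Its groups spanned almost the same range, with a log2 fold change of 0.00 and an interval of -0.14 to 0.13 (limma adjusted p = 0.990). HMMR, a receptor for hyaluronan that also binds spindle microtubules, was at 8.06, 7.36 and 7.82 FPKM in shControl and at 8.04, 8.99 and 8.21 FPKM in shZnf148 (log2 fold change 0.11, SE 0.08, limma adjusted p = 0.394). NUSAP1 and DLGAP5, both microtubule-binding spindle proteins, had log2 fold changes of 0.04 and -0.08, and all 4 genes overlapped between the groups.

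All 4 cytokinesis genes had lower means, with a median log2 fold change of -0.25. Of the 4, 1 passed (25%), whereas 8.13% of all rows passed with a decrease. ANLN, anillin, the scaffold of the contractile ring, had the largest difference of the 42 genes. It was at 230.3, 230.3 and 247 FPKM in shControl and at 166, 113 and 173 FPKM in shZnf148. All shZnf148 values were well below the controls, and replicate 2 was below replicates 1 and 3. The mean ± SD (n = 3) was 236 ± 9.4 FPKM in shControl and 150.3 ± 33 FPKM, or 63.8% of it, in shZnf148, with a log2 fold change of -0.67 (SE 0.16, limma adjusted p = 0.0417). Without shZnf148 replicate 2 the log2 fold change was -0.48 (SE 0.06, adjusted p = 0.0104), below 1.5-fold. ANLN passed in 8 of 16 alternative fits.

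ECT2, the exchange factor that activates RhoA at the cell equator, was at 50.6, 51.9 and 54.4 FPKM in shControl and at 42.8, 27.6 and 46.6 FPKM in shZnf148. The groups did not overlap, and replicate 2 was again the lowest. The log2 fold change was -0.45 (SE 0.18, limma adjusted p = 0.144), and -0.22 without shZnf148 replicate 2 (adjusted p = 0.0698). RACGAP1 and PRC1, which build the central spindle, had log2 fold changes of -0.05 and -0.02 and overlapped between the groups. The lower row of PRC1, at 18.7 to 22.0 FPKM in shControl and 14.9 to 17.4 FPKM in shZnf148, did not overlap (log2 fold change -0.28, limma adjusted p = 0.0846). The median of the cytokinesis genes was -0.09 without shZnf148 replicate 2.

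Of the genes of chromosome structure, 4 of 5 had lower means, the median log2 fold change was -0.13 and none passed in limma (1 at an unadjusted p under 0.05). TOP2A, the topoisomerase that untangles sister chromatids, was at 206, 204 and 216 FPKM in shControl and at 218, 207 and 227 FPKM in shZnf148, with overlap (log2 fold change 0.06, SE 0.06, limma adjusted p = 0.544). SMC2, the ATPase core of condensin with SMC4, was at 23.2, 23.5 and 23.7 FPKM in shControl and at 18.3, 10.7 and 19.0 FPKM in shZnf148. The control values were almost equal, all shZnf148 values were lower, and replicate 2 was lower still. The log2 fold change was -0.57 (SE 0.20, limma adjusted p = 0.102). Without shZnf148 replicate 2 it was -0.32 (SE 0.05, adjusted p = 0.0231), a smaller difference that passed. SMC4, NCAPG and NCAPD2 had log2 fold changes of -0.27, -0.13 and -0.10.

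**Figure D2:**
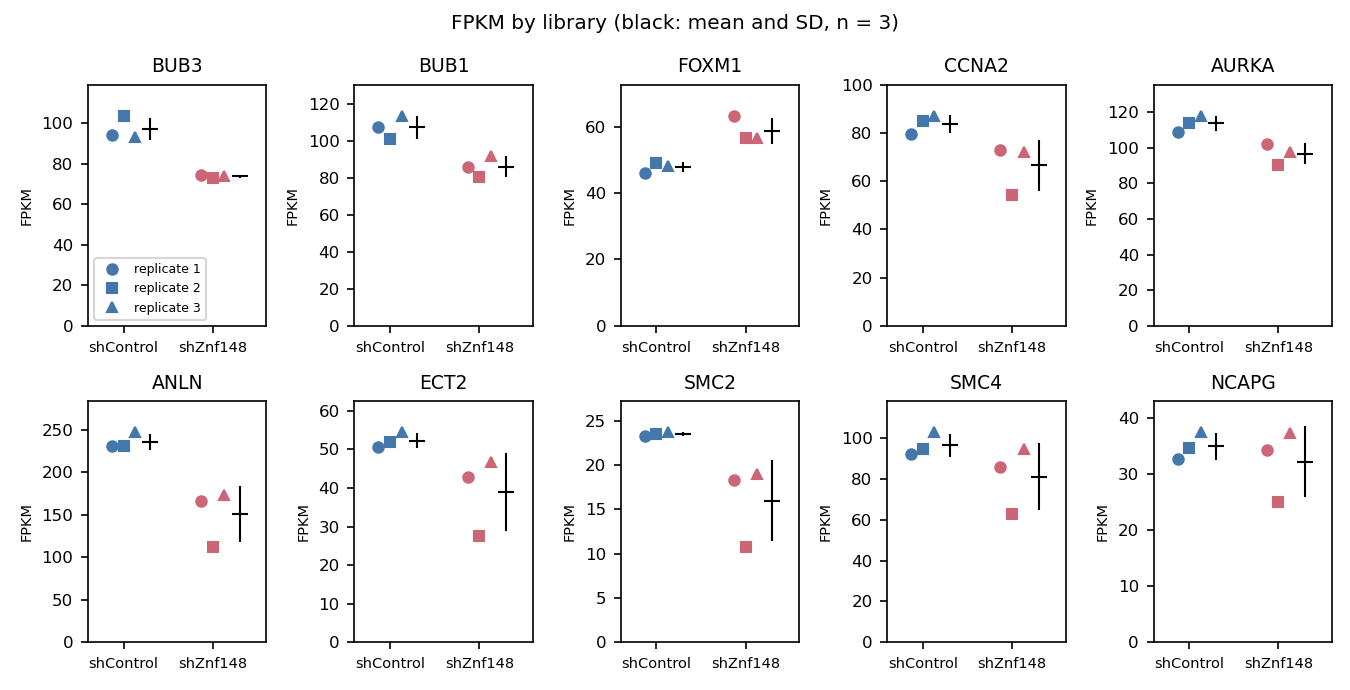
FPKM of 10 of the genes in each library, with blue for shControl, red for shZnf148, the marker shape giving the replicate number, and black lines the mean and SD (n = 3). Every axis starts at 0. BUB3 and BUB1 sit lower and FOXM1 higher in all shZnf148 libraries, whereas shZnf148 replicate 2 (square) lies far below the other shZnf148 libraries in ANLN, ECT2, SMC2, SMC4 and NCAPG.

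The genes differed in how evenly the shZnf148 libraries carried the change. In shZnf148, 5 of the 42 genes spanned more than 0.5 on the log2 scale between the lowest and the highest library: SMC2 (0.77), ECT2 (0.73), ANLN (0.61), SMC4 (0.58) and NCAPG (0.56). In all 5 the lowest library was replicate 2 and the highest replicate 3. In shControl none of the 42 genes spanned as much. Over all 11777 rows, 1981 (16.8%) spanned more than 0.5 in shZnf148, with replicate 2 the lowest in 801 of them, and 975 spanned as much in shControl. Replicate 2 was the lowest of the 6 libraries for 17 of the 42 genes, 40.5%, against 26.3% of all rows. It was the highest for 2 of the 42 genes, whereas over all rows it was the highest in 27.6%. Both shares over all rows were the largest of any library. Replicate 2 also had the lowest ZNF148 value. Without it, 23 of the 42 genes had lower means, the median log2 fold change was -0.03, and the log2 fold changes of SMC4 and NCAPG became -0.10 and 0.03.

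Replicate 2 was not lower throughout. CDC25B, the phosphatase that first activates CDK1, was at 84.9 to 90.0 FPKM in shControl and at 92.5, 116 and 89.9 FPKM in shZnf148, with replicate 2 the highest. Its log2 fold change was 0.18 (SE 0.10, limma adjusted p = 0.277). The summed FPKM of the 42 genes made up 0.750%, 0.775% and 0.797% of the total in shControl and 0.769%, 0.710% and 0.786% in shZnf148. As a share of the total, only replicate 2 of shZnf148 lay below the control range. The summed FPKM itself was 3803, 3875 and 3965 in shControl and 3652, 3468 and 3693 in shZnf148. On that scale every shZnf148 library lay below the controls. The median SD of log2 values of the 42 genes was 0.06 in shControl and 0.11 in shZnf148. Over all rows, not matched for expression, it was 0.09 and 0.14.

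**Figure D3:**
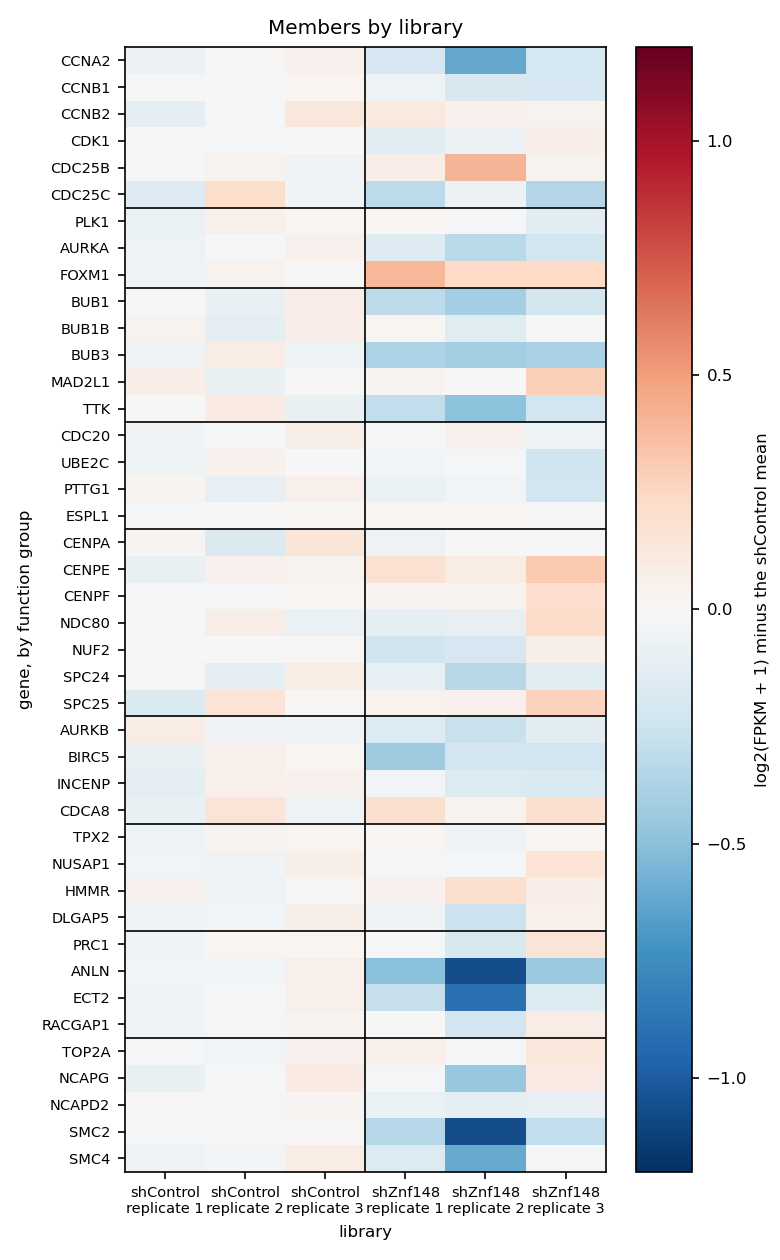
Heat map of the 42 genes by function (rows) and the 6 libraries (columns), showing log2(FPKM + 1) minus the mean of shControl, with blue for lower and red for higher. The BUB3 row is evenly blue over the 3 shZnf148 libraries, whereas ANLN, ECT2 and SMC2 are darkest in shZnf148 replicate 2.

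Genes with and without a CHR word overlapped in their differences between the groups. The 28 genes with a CHR word had a median log2 fold change of -0.03 (from -0.67 to 0.18) and the 6 without one -0.17 (from -0.34 to 0.20). BUB1, ANLN and SMC2, whose sites are printed above, lay at the low end of the first group, and CCNB2 and PLK1, also with a CHR word, had 0.07 and -0.04. The guide strand of the ZNF148 hairpin, the complement of its designed target, was also set against the transcripts. It is shown because a word pairing with its bases 2 to 8 (capitals) can occur in other transcripts.
shZnf148 guide: aTCATTTAcattcaccaaggg
The pairing word TAAATGA occurred in the 3′ UTR of the canonical GENCODE transcript of 5 of the 42 genes (11.9%), BUB3, BIRC5, ECT2, MAD2L1 and TPX2, against 22.4% of 10201 genes in tested rows. The 3′ UTRs of the 42 genes were shorter, with a median of 777 bases against 1336 bases. ANLN, BUB1, FOXM1 and SMC2 held none. The word was looked up after the expression values had been seen.

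A further 116 genes of the mitotic machinery and its transcriptional regulators were listed by function, the regulators being 14 genes of DREAM, MMB and NF-Y. Of the 116, 115 were tested (the highest row of KIFC1 was at 0.296 FPKM). Of these, 16 passed (13.9%, against the 13.6% of all rows), 9 lower and 7 higher, with a median log2 fold change of 0.05. Those over 1.5-fold were E2F5 and TRIP13, which fell, and CDC25A, which rose. TRIP13, the ATPase that remodels the checkpoint protein MAD2, was at 23.8, 23.5 and 22.0 FPKM in shControl and at 14.6, 11.0 and 16.7 FPKM in shZnf148 (log2 fold change -0.69, SE 0.14, limma adjusted p = 0.0302). All shZnf148 values were below the controls, as for BUB1 and BUB3. Of the 7 further checkpoint genes TRIP13 alone passed (14.3%), and the median of the 7 was 0.06.

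CDC25A, a phosphatase that acts on CDK2 and CDK1, was at 8.96, 10.4 and 11.1 FPKM in shControl and at 15.0, 19.3 and 15.4 FPKM in shZnf148, a log2 fold change of 0.65 (SE 0.12, limma adjusted p = 0.0246). E2F5, a repressor E2F that serves in the DREAM complex, was at 8.87, 8.16 and 9.39 FPKM in shControl and at 4.69, 4.80 and 5.16 FPKM in shZnf148, a log2 fold change of -0.74 (SE 0.09, limma adjusted p = 0.0106). Neither gene overlapped between the groups. Of the 14 genes of DREAM, MMB and NF-Y, E2F5 and RBL2 fell, MYBL2 and E2F4 rose, and the median was 0.19. Of the 15 genes of entry and exit, CKS1B and CKS2 fell, CDC25A and WEE1, the kinase that inhibits CDK1, rose, and the median was 0.01. Passing genes made up 28.6% of the former list and 26.7% of the latter, against 13.6% of all rows.

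Among 26 further kinetochore genes HJURP, the chaperone of CENPA, fell and the median was 0.09. Of 15 genes of the anaphase-promoting complex and its regulators none passed in limma (3 at an unadjusted p under 0.05; median 0.02). Of 22 motors and spindle genes KIFC3 fell, KIF20A and KIF4A rose, and the median was -0.01. Of 16 condensin and cohesin genes NCAPH and NCAPD3 fell, SMC1A rose, and the median was -0.07. Passing genes made up 3.85% of the kinetochore list, 13.6% of the motors and spindle list and 18.8% of the condensin and cohesin list. Over all rows the share was 13.6%.

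SMC2, SMC4, NCAPG and NCAPD2 were then set beside the other condensin subunits, a grouping made after the values were seen. All 8 subunits of condensin I and II had lower means in shZnf148, with a median log2 fold change of -0.27, 6 without overlap and 2 passing (NCAPH and NCAPD3). Over all rows 41.0% did not overlap, 21.0% with lower values in shZnf148, and 13.6% passed. Without shZnf148 replicate 2, 7 of the 8 were lower, 3 passed and the median was -0.14. Of 5 cohesin genes (SMC1A, SMC3, RAD21, STAG1 and STAG2), 3 had higher and 2 lower means, all 5 without overlap, and SMC1A passed.

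**Figure D4:**
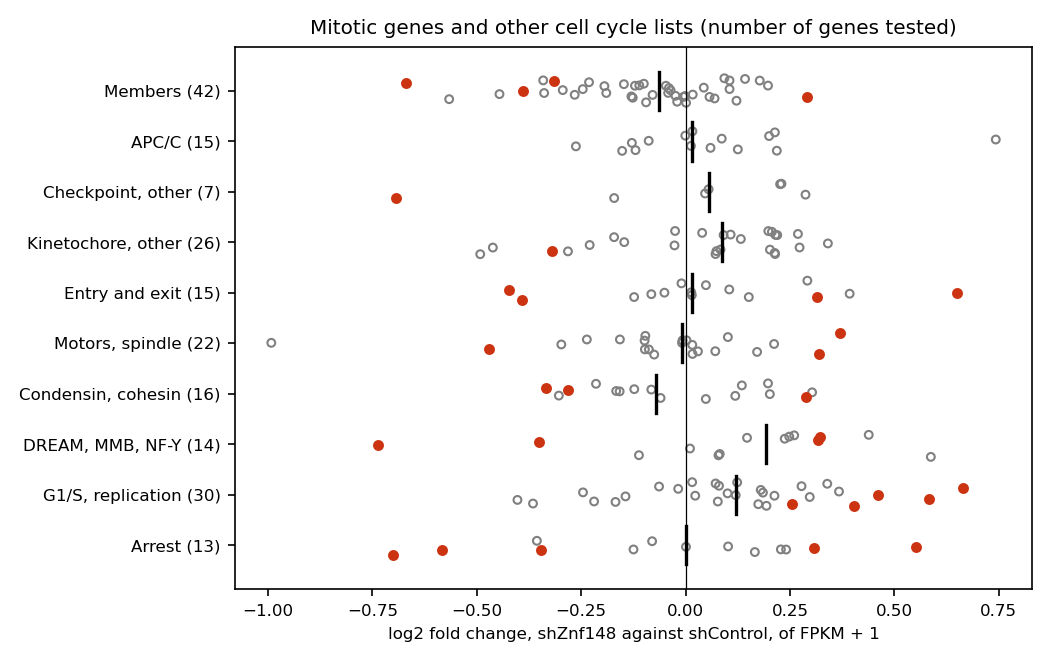
Log2 fold change of FPKM + 1, shZnf148 against shControl, for the 42 genes (Members) and other cell cycle lists, with the number of genes tested. Each point is a gene, filled where the limma adjusted p was under 0.05, and black bars are medians. The 42 genes centre at -0.06 and the other lists have medians from -0.07 to 0.19.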

How the data were processed

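Expression was deposited by the authors as FPKM in a single table, 1 column per sample, and 0 of its sample columns went unused. The submitters' processing notes name bcl2fastq 2.17.1.14, TopHat2 2.0.14, Cufflinks 2.2.1, Cuffnorm 2.2.1 and the builds hg18 and hg19, whereas the study's methods name Salmon, GRCh38 and DESeq2. Which of these made the FPKM table is not given in the sources used here. FPKM values keep no read counts, so no count test was run and low values have an unknown precision. A 0 can be a failed estimate.

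Values were used as log2(FPKM + 1), which understates the change of low genes. The 11777 of 24108 rows that averaged 1 FPKM or more entered a linear model of condition (limma 3.58.1, R 4.3.3). Variances were moderated with a trend on the mean, and p-values were adjusted by Benjamini-Hochberg. Rows were tested singly, and a gene with several rows was described by the highest. Only the limma fit was tested on simulated data. The noise there was independent between libraries with the fitted variances, so an uneven library such as shZnf148 replicate 2 was not simulated. Other steps ran in Python 3.11.15 (pandas 2.3.3, numpy 2.4.6; figures, matplotlib 3.10.9).

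The members and the gene lists were chosen with earlier results of these data known. Values in every sample were given for members that passed and, in each function group, for the member with the largest change and the one with the highest mean. They were also given for ZNF148 and for up to 10 listed genes over 1.5-fold. TTK, ECT2, CDC25B, SMC4, NCAPG and the smaller values quoted for other members were added after their values were seen. Older symbols were matched through RefSeq synonyms for 8 listed genes. Transcripts and coordinates came from GENCODE release 44 on GRCh38, and promoters from RefSeq.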

Additional observations from a re-analysis of the deposited data

How the results depend on the processing

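Of the 42 genes, 4 passed; the number was 1 without a filter on low values, 2 after quantile normalization, 1 for eBayes without trend, 8 with array weights (BUB3, BUB1, ANLN, FOXM1, AURKA, BIRC5, SMC2 and TTK) and 0 to 4 when each replicate was left out. The number over 1.5-fold was 1, and 0 without the filter, after quantile normalization, without trend and with array weights, and 0 to 1 when each replicate was left out. Of all rows 1600 passed, 3443 with array weights and 22 to 1720 when each replicate was left out. Of the further mitotic and regulator genes 16 passed, 36 with array weights and 0 to 19 when each replicate was left out. The cause of these differences was not tested. The median over the 42 genes stayed below 0 in all 16 alternative fits, from -0.10 to -0.02. BUB3, BUB1, ANLN and FOXM1 kept their sign in every fit. Some values near 0 changed sign, among them the medians of the entry regulators, kinetochore genes and spindle genes, and NDC80 and TPX2. The entry regulator median ranged from -0.08 to 0.02 and the log2 fold change of NDC80 from -0.11 to 0.06.

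The replicate numbers were shared by the groups, and deviations of same-numbered libraries from their group means correlated at 0.0010, -0.09 and 0.03 over all rows tested. The labels do not say whether equal numbers mark libraries handled together, and such low correlations cannot exclude it. With the replicate block 0 of the 42 genes passed in limma (13 at an unadjusted p under 0.05), 0 of them over 1.5-fold. In that fit 401 of all rows and 4 of the further mitotic and regulator genes passed. The reads behind the FPKM values are unknown, and each group rests on 1 hairpin and 3 libraries.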

Other observations

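Genes of G1/S and DNA replication, listed for comparison, had higher means in shZnf148 in 22 of 30 cases, with a median log2 fold change of 0.12. Of these, 5 rose in limma (CCND1, CCNE2, RRM2, UHRF1 and MCM4) and none fell, with 12 of the 30 at an unadjusted p under 0.05. The 5 are 16.7% of the list, whereas of all rows 13.6% passed, 5.46% higher and 8.13% lower. An unadjusted p under 0.05 was found in 33.8% of all rows. CCNE2, cyclin E2, which drives entry into S phase with CDK2, was at 9.29, 12.4 and 9.81 FPKM in shControl and at 17.6, 17.2 and 16.5 FPKM in shZnf148, a log2 fold change of 0.66 (SE 0.11, limma adjusted p = 0.0201). CCND1, cyclin D1, rose by 0.58 on the log2 scale and RRM2, a subunit of ribonucleotide reductase, by 0.46. The difference between these genes and the mitotic genes was not tested.

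Of 13 tested genes of cell cycle arrest, GADD45A, GADD45B and CDKN1C fell and CDKN2C and RB1 rose. These were 38.5% of the list, against the 13.6% of all rows, and the median log2 fold change was 0.00. CDKN1C had a mean of 1.19 FPKM, close to the filter of 1 FPKM, and lay below 1 FPKM in every shZnf148 library. GADD45A, a stress-induced growth arrest gene, was at 64.7, 80.3 and 63.6 FPKM in shControl and at 34.3, 46.1 and 47.5 FPKM in shZnf148, a log2 fold change of -0.70 (SE 0.15, limma adjusted p = 0.0324). CDKN2C, which encodes the CDK4 and CDK6 inhibitor p18, rose by 0.55 on the log2 scale, with its highest value, 66.2 FPKM, in shZnf148 replicate 2.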
